A study of Drosophila melanogaster with 2 samples.

Results

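The histone genes of Drosophila melanogaster fall into 2 kinds, a tandem array of repeated copies on chromosome arm 2L and a few single-copy variant genes elsewhere. They were taken from the Ensembl dm6 annotation by symbol. Every protein-coding gene whose symbol starts with His1:, His2A:, His2B:, His3: or His4: counted as a repeated copy, and His2Av, His3.3A, His3.3B, His4r and BigH1 as variants. That gave 116 of 13945 protein-coding genes, of which 111 were repeated copies and 5 were variants. Dp is the dimer partner of the E2F transcription factors, and its binding was measured by ChIP-seq in whole embryos aged 0 to 24 hours, males and females pooled, from a stable transgenic line in which GFP was joined to the carboxyl end of Dp. The series held this group alone, as biological replicates 1 and 3, so no condition was compared with another and no genotype served as a control. The labels do not say which promoter drives the fusion protein, and whole embryos mix many tissues and stages. The labels call the libraries input controls while giving Dp as the target, and the files do not settle this.

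The repeated copies make the histones that package new DNA. Their transcription peaks in S phase, their messages end in a stem-loop and carry no poly(A) tail, and they are made in a nuclear compartment, the histone locus body, that assembles on the array. The variants are used outside replication or in particular cells. His2Av encodes the only H2A variant of the fly, His3.3A and His3.3B encode the same replacement histone H3, His4r encodes an H4 of the same protein sequence as the array copies, and BigH1 encodes the linker histone of the germline and the early embryo. E2F and Dp dimers are best known for controlling genes of S phase.

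All 5 variants had a Dp summit at a start, and none of the 111 repeated copies did. A gene counted as bound when the summit of a peak in the list thresholded by irreproducible discovery rate lay within 500 bp of any annotated start. By that rule 42.2% of all protein-coding genes were bound. In the relaxed list of both replicates pooled, which holds 30000 peaks down to weak ones, the counts were again 5 of 5 variants and 0 of 111 copies, where 60.3% of all genes had a summit. A relaxed summit in each replicate's own list was present for 5 of 5 variants and 0 of 111 copies, against 56.3% of all genes. The array and the variants are described apart, because their sequences differ in how far short reads can be placed.

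The sequences around the variants' summits are shown so that the presence or absence of E2F and related sites at each gene can be read from the letters. The windows printed for His3.3B, His2Av and His4r at their strongest counted summits hold no match to the E2F, CHR or DRE forms listed below. Letters that differ from a form by a single base, such as ttggcgg at His3.3B, were not counted. Each was read from the dm6 reference genome for 75 bases to either side of a summit, on the strand of the gene. Capitals mark matches on either strand. The E2F core was searched as TTCCCGC, as the form TTCGCGC, as the form TTGCCGC and as the form TTGGCGC. The CHR element, which MuvB complexes contact, was searched as TTCGAA and as the form TTTGAA, and the DRE, the site of the factor DREF, as TATCGATA.
His3.3A, chr2L:5055024-5055174, plus strand: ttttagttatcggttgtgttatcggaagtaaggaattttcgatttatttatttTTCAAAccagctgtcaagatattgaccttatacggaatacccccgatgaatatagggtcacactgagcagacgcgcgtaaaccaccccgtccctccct
His3.3B, chrX:9156690-9156840, minus strand: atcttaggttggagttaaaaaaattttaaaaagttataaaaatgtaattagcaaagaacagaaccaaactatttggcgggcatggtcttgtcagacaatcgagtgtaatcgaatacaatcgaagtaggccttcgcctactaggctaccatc
His3.3B intron, chrX:9155707-9155857, minus strand: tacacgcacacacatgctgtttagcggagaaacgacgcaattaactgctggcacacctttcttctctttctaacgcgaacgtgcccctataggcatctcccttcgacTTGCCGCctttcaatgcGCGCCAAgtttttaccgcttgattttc
His2Av, chr3R:26866587-26866737, plus strand: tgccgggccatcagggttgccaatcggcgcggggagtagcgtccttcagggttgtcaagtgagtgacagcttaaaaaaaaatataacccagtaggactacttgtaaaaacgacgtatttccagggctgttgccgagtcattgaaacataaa
His2Av intron, chr3R:26867423-26867573, plus strand: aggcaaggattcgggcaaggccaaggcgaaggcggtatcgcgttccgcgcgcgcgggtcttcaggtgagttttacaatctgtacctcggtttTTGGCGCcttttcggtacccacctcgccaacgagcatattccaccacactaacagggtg
BigH1, chr3R:14663107-14663257, plus strand: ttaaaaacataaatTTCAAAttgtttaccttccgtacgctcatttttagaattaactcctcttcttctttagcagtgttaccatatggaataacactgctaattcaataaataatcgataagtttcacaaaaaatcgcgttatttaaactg
His4r, chr3R:14625652-14625802, plus strand: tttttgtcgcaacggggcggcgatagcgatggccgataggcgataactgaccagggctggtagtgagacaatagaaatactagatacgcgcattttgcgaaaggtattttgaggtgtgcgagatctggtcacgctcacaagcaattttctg

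In the array, the stretches between divergent starts and the stretch before His1 are shown, since each carries the promoters of its unit. The form printed is the commonest among the annotated copies. Between the starts of His2B and His2A it is 128 bases, identical in 8 of 20 pairs. Between those of His4 and His3 it is 183 bases, identical in 5 of 22 pairs. Before His1 it is 150 bases, identical in 9 of 23 copies. Capitals here mark TATAAA, the core of the TATA box, and GAGAG, a short form of the GA repeats that the zinc finger protein CLAMP binds, on either strand.
His2B and His2A, chr2L:21423609-21423736, plus strand: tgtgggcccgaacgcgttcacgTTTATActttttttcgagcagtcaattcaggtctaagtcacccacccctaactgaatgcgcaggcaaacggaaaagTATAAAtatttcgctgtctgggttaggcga
His4 and His3, chr2L:21489647-21489829, plus strand: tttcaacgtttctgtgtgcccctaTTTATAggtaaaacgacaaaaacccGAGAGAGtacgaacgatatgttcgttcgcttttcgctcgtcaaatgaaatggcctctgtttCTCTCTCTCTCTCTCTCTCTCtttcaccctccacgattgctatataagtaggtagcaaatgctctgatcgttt
His1, chr2L:21421705-21421854, plus strand: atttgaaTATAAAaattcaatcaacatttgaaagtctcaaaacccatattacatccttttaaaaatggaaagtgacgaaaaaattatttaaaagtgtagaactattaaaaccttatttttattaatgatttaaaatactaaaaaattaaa

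The array ran from the start of His1:CG33801 to the end of His3:CG33866, chr2L:21416953-21541681, a span of 124729 bp. It held 23 copies of His1, the linker histone, 20 of His2A, 23 of His2B, 23 of His3 and 22 of His4, and no other protein-coding gene. A unit reads His1, His2B, His2A, His4 and His3 from left to right, with His2B and His4 on the minus strand, and 19 units were complete in this order. His1 starts followed each other at a median of 5045 bp, with a lowest spacing of 4843 bp and a highest of 14041 bp. The widest stretch between histone genes, 10336 bp from the end of His3:CG33812 to the start of His1:CG33813, gave that highest spacing. The reference itself carries a run of 100 unknown bases at chr2L:21485539-21485638, so the annotated copies are those of an array that is not joined throughout in the assembly.

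No peak of any deposited list touched the array. The thresholded list, the pooled relaxed list and the relaxed lists of replicates 1 and 3 had 0 summits and 0 overlapping peaks between its ends. The 124729 bp to its left held 16 pooled relaxed summits, and the same length to its right held 19, which is 12.8 and 15.2 per 100 kb, where the whole arm had 21.4. Those neighbouring stretches held 9 and 6 starts of protein-coding genes, against 111 in the array. Since no copy had a peak, none of them has a signal value, and no class of copy can be ranked above another.

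**Figure D1:**
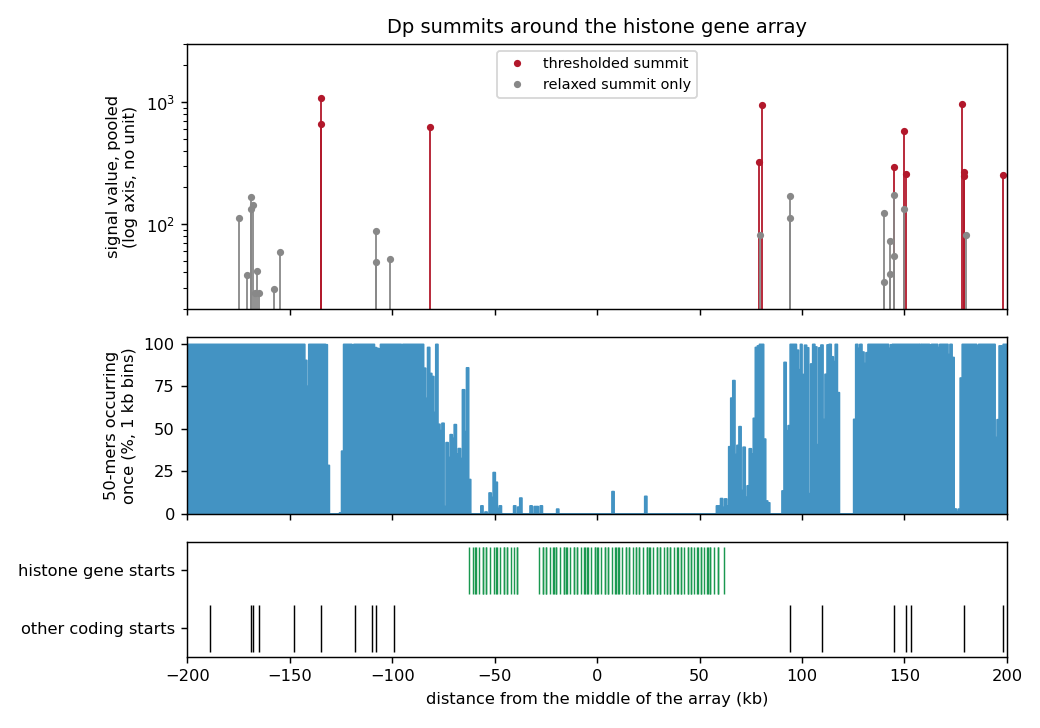
The upper panel plots the pooled signal value of each relaxed summit (log axis) against the distance from the middle of the histone gene array in kb, with summits of the thresholded list in red. The middle panel gives the percentage of 50-mers that occur once in the assembly per 1 kb, and the lower panel marks histone starts and other protein-coding starts. The array has 111 histone starts, no summit and almost no unique 50-mer, and the summits nearest to it lie 19.4 kb to the left and 16.7 kb to the right.

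The nearest summits lay well outside. To the left, a thresholded summit at 21397514, with a pooled signal value of 629, was 19.4 kb from the array and 17381 bp downstream of the nearest start of nrv3, past the end of that gene, a subunit gene of the sodium and potassium pump. Replicate 1 had a signal of 311 there, 2 bp from the pooled summit, while the last summit of replicate 3 before the array was 205 bp away with 22.6. To the right, a summit at 21558390 had a signal of 320 and lay 16.7 kb from the array and 14999 bp before the start of Lamp1, a lysosomal membrane protein gene. Replicate 3 had 146 there, and the first summit of replicate 1 past the array was another, weaker one with 14.8. Only the summit nearest to the array was taken from each list. The values 22.6 and 14.8 thus need not be the highest of those replicates at the pooled summits. Neither nrv3 nor Lamp1, the nearest protein-coding genes on the 2 sides, was bound, though Lamp1 had a relaxed summit of 169 at its start. The distance from a copy to the nearest pooled relaxed summit was at least 17.2 kb, with a median of 51.7 kb and a highest value of 80.3 kb.

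The array is also where short sequences cannot be placed. Of all 50-base sequences that start in the array, 1.44% occur once in the dm6 assembly, against 88.4% on the 6 main arms and 92.2% on 2L. The neighbouring stretches of the same length stood at 85.9% on the left and 73.0% on the right. Within 250 bp of a start, 102 of the 111 copies had no unique 50-mer. The highest share was 41.8%, at His4:CG33907, followed by 35.8% at its neighbour His3:CG33806. The unique sequence of the array was split into 31 runs, of which the longest held 189 consecutive 50-mers, at His4:CG33907. How long the reads were and how reads with several matches were treated is not stated in the labels or files, although the deposited file descriptions list signal tracks of unique reads, which were not analysed here.

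Peaks were almost absent from such sequence elsewhere. Of positions on the main arms, 7.35% have fewer than 10% unique 50-mers in the surrounding window. Of the 5828 thresholded summits 0 lay in such windows, and of the 30000 pooled relaxed summits 2 did (0.00667%). The relaxed lists of replicates 1 and 3 had 3 and 0. Of the histone copies, 106 had under 10% unique 50-mers at their start and 0 of these had a relaxed summit, against 5 of 119 (4.20%) other protein-coding genes with starts of that kind. Uniqueness was taken around the outermost start, while a summit could lie near any start. The summits of those 5 genes thus need not lie in repeated sequence. Another 5 copies fell between 10% and 50%, with 0 relaxed summits, where 14 of 86 other genes (16.3%) had one. Other genes at 90% or more had a relaxed summit in 8338 of 13483 cases (61.8%), and the 5 variants, all at 100%, in 5 of 5. An absent peak in such sequence is not a measured absence of Dp, and the part of sequence uniqueness in the result for the array was not tested.

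**Figure D2:**
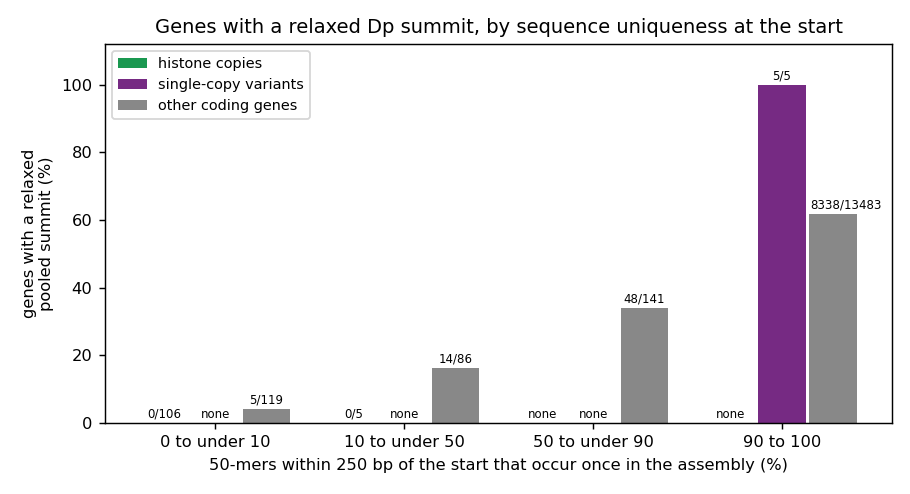
Bars give the percentage of genes with a relaxed pooled summit within 500 bp of a start (linear axis from 0), for histone array copies, single-copy variants and other protein-coding genes, by the percentage of unique 50-mers around the outermost start. Fractions above the bars are genes with a summit over genes in the bin, and "none" marks a bin with no gene. In the lowest bin 0 of 106 histone copies and 5 of 119 other genes had a summit, and in the highest bin 5 of 5 variants and 8338 of 13483 other genes.

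The gap that holds the array, 161 kb from summit to summit, ranked 52 of 29994 gaps between neighbouring relaxed summits on the main arms, whose median was 1342 bp. The 4 longest gaps, of 1520, 810, 510 and 409 kb, had 60.8%, 17.0%, 79.7% and 59.2% unique 50-mers, all below the 88.4% of the main arms. The fifth and sixth longest, both on 2L, spanned 363 and 358 kb with 95.7% and 96.2% unique 50-mers, and held 22 and 15 protein-coding starts.

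Among the variants, the replacement histone genes His3.3A and His3.3B had the highest signal. The signal value is the authors' own number per peak, on a scale that is not stated, and was used only within a list. For each variant the strongest thresholded peak within 500 bp of a start was taken. The pooled values were 3023 at His3.3A, 2006 at His3.3B, 1068 at His2Av, 703 at BigH1 and 434 at His4r, where the median over all 5891 bound genes was 736 and the interquartile range 430 to 1790. So 3 of 5 variants were above the median of bound genes, and His3.3A, at rank 797 of these genes, stood highest. With the peak nearest to a start in place of the strongest, His2Av had 0.670 times the median of bound genes in place of 1.45, below that median and below BigH1 at 1.02, so the places of these genes in the order depend on which peak is taken.

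With the strongest peak, each replicate gave the same order. Replicate 1 had 1628 at His3.3A, 1140 at His3.3B, 604 at His2Av, 376 at BigH1 and 232 at His4r. Replicate 3 had 1409 at His3.3A, 869 at His3.3B, 483 at His2Av, 333 at BigH1 and 214 at His4r. Relative to the median of bound genes in the same list, replicates 1 and 3 had 4.11 and 4.02 at His3.3A, 2.88 and 2.48 at His3.3B, 1.53 and 1.38 at His2Av, 0.951 and 0.951 at BigH1, and 0.586 and 0.612 at His4r. These ranges do not overlap between neighbours in the order. The ratio between neighbours was lowest at His3.3A over His3.3B in replicate 1 (1.43) and at His2Av over BigH1 in replicate 3 (1.45). Over bound genes, 1 SD of the replicate difference is a factor of 1.23. That SD concerns the same gene in the replicates and does not measure the error of a ratio between genes. No test of these differences was run.

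The replicates differed little at the strongest peaks of these genes. On the log2 scale replicate 3 minus replicate 1 was -0.21 at His3.3A, -0.39 at His3.3B, -0.32 at His2Av, -0.18 at BigH1 and -0.12 at His4r, against a median of -0.20 and an SD of 0.30 over 5875 bound genes with a peak in both. All 5 lay within 1 SD of that median. At His2Av the replicate 1 summit was 127 bp from the pooled one and the replicate 3 summit 4 bp. For the weaker counted summit of His2Av, against the same replicate 1 summit, the difference was -1.19. Because a single control alignment served both replicates, their agreement does not cover error in the control.

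**Figure D3:**
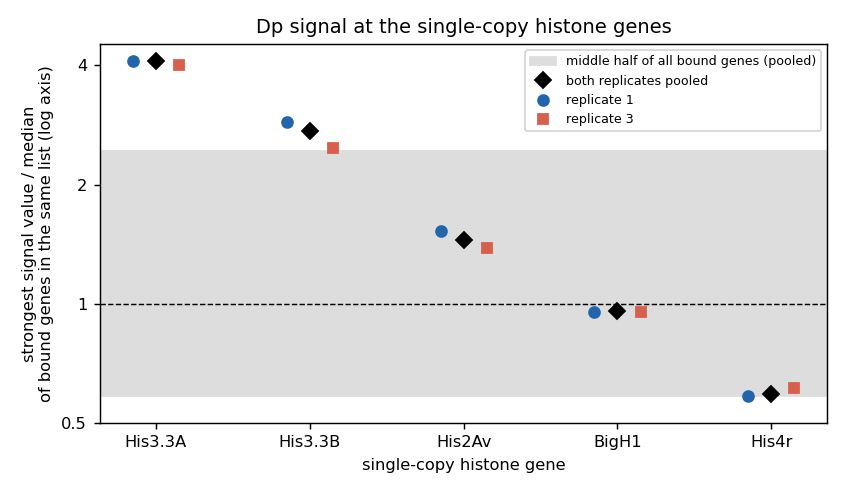
Strongest signal value within 500 bp of a start at each single-copy histone gene, divided by the median over bound genes in the same list (log axis), for the pooled list and for replicates 1 and 3. The grey band is the interquartile range of all bound genes in the pooled list and the dashed line their median. His3.3A and His3.3B lie above the band, His2Av and BigH1 inside it, and His4r, at 0.591, near its lower edge.

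His3.3A carried a single strong summit between its own starts. The gene lies at chr2L:5055058-5056149 on the plus strand, with annotated starts at 5055058 and 5055134. The peak, chr2L:5054662-5055457, had its summit at 5055099, in the 5′ untranslated region, 35 bp before the second start. The summit of replicate 3 fell on the same base and that of replicate 1 was 2 bp away. The peak also served CG14036, whose start is 83 bp from the summit. It held 1 CHR match, 20 bp from the summit, and no E2F core or DRE within 100 bp. Of all thresholded summits, 49.3% had a CHR and 18.9% an E2F core within that distance.

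His3.3B had summits before 2 of its 3 starts. The gene lies at chrX:9152523-9156669 on the minus strand, with starts at 9156669, 9155613 and 9155012. The stronger peak, chrX:9156440-9157054, had a signal of 2006 and its summit 96 bp before the outermost start, in sequence between genes. A second peak, chrX:9155597-9156047, lay in an intron of the gene with its summit 169 bp before the middle start and a signal of 435, and replicates 1 and 3 had 248 and 197 there. The intron peak held 2 E2F cores within 100 bp of its summit, printed in capitals in its sequence, at 9155727 to 9155733 and 9155744 to 9155750. The stronger, outer peak held no E2F core within 100 bp of its summit. Its summit base lies inside ttggcgg, which differs from the form TTGGCGC by a single base and was not counted. No other gene shared either peak.

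His2Av lay in a peak of several summits that it shared with ball, the kinase gene on its other side. The product of ball is the nucleosomal histone kinase, which phosphorylates H2A. The peak, chr3R:26866323-26867919, was 1597 bp wide, where the median thresholded peak was 543 bp. The summit of 1068 lay 267 bp before the His2Av start, in an intron of ball and 37 bp from a start of ball, and a summit of 461 lay 45 bp before the His2Av start and 77 bp from a start of ball. Replicate 3 had both summits, with 483 and 265, while replicate 1 had a single summit of 604 within 500 bp of the start, between them, 140 bp before the start.

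The strongest summit of the His2Av peak fell outside the distance rule. It lay 569 bp into the gene, in an intron, with a signal of 1275, above the 1068 that was counted. Replicates 1 and 3 had 727 and 519 there, each 5 bp from the pooled summit. This summit had an E2F core, TTGGCGC at chr3R:26867515-26867521, which also matched the longer form TTTGGCGC, 20 bp from the summit. The summits nearer to the start had no E2F core, CHR or DRE within 100 bp. The distance limit of 500 bp thus separates counted summits at 267 bp and closer to a His2Av start from this one at 569 bp.

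BigH1 was counted through a summit at its neighbour. The gene lies at chr3R:14663450-14664822 on the plus strand, and the thresholded peak, chr3R:14662953-14663367, had a signal of 703, with its summit 268 bp before the BigH1 start and 15 bp inside the 5′ untranslated region of Rad17, a gene of the DNA damage checkpoint. Replicates 1 and 3 had 376 and 333 there. A separate relaxed summit lay 62 bp before the BigH1 start with a signal of 210, just under 213, the lowest signal in the thresholded list. Replicates 1 and 3 had 85.9 and 135 at that summit. The summit near Rad17 held 1 CHR match, as did 49.3% of all thresholded summits or more than 1, and no E2F core.

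His4r had the lowest value of the variants and shared it with put. The gene lies at chr3R:14625755-14626614 on the plus strand with starts at 14625755 and 14625788. The peak, chr3R:14625477-14625912, had a signal of 434 and its summit 28 bp before the first start and 24 bp before a start of put, a receptor gene of the activin and BMP pathways on the opposite strand. Replicates 1 and 3 had 232 and 214, with summits 3 and 6 bp from the pooled one. No E2F core, CHR or DRE was found within 100 bp of the summit.

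**Figure D4:**
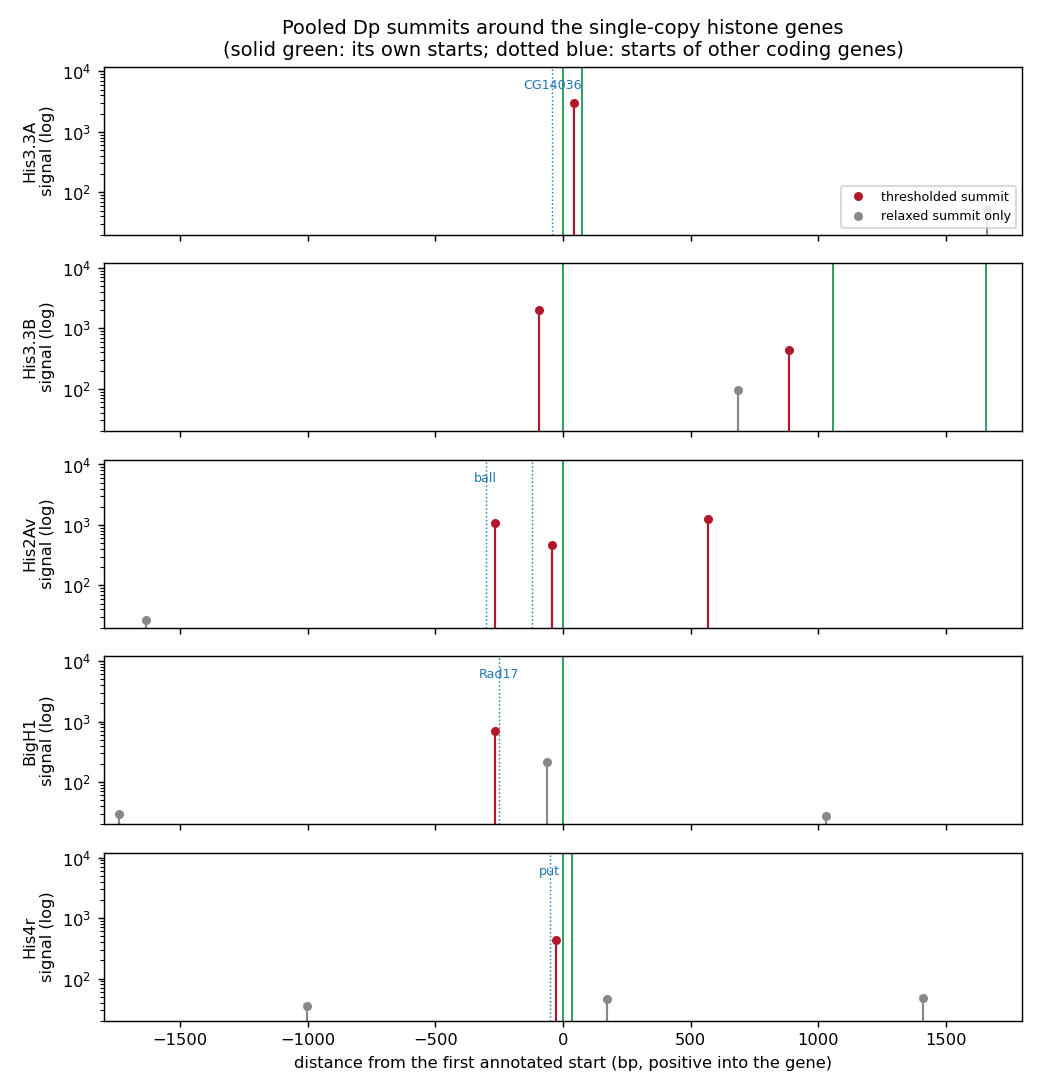
Pooled relaxed summits around each single-copy histone gene, plotted by distance from the outermost start in bp (positive into the gene) and signal value (log axis), with thresholded summits in red and summits only in the relaxed list in grey. Solid green lines are the gene's own starts and dotted blue lines those of other protein-coding genes. His2Av has a summit of 1275 at 569 bp, and the thresholded summit of BigH1 sits at the start of Rad17.

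Most variants shared their peak with a neighbour. The strongest peak of 4 of the 5 also had its summit within 500 bp of a start of another protein-coding gene, with His3.3B as the exception, and the same held for 58.5% of all bound genes. For His3.3A the gene's own start was nearer to that summit than the neighbour's, while for His4r, BigH1 and the counted summit of 1068 at His2Av the neighbour's was nearer. A peak at such a divergent promoter cannot be told apart as belonging to one gene or the other from these lists. More than 1 thresholded summit near a start was found at 2 of 5 variants (40.0%), against 23.8% of all bound genes.

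In the main window around the outermost start, neither the array copies nor the variants had an E2F core or a DRE. TATAAA and GA repeats were found there at most or many of the copies and at few variants. In a window of 250 bases before to 50 after the outermost start, an E2F core was found at 0 of 111 array copies and 0 of 5 variants, where 14.0% of all protein-coding genes had one. With 200 bases to either side of the start, 18 of the 22 His4 copies had a core, against 19.3% of all genes, and no other copy or variant did. These matches reach past the 50 bases after the start, so they lie inside the annotated gene and not before it. CHR was present at all 23 His1, all 23 His3 and all 22 His4 copies and at no His2A or His2B copy, and at His3.3A and BigH1 among the variants, against 48.1% of all genes. TATAAA was found at 105 of 111 copies and 1 of 5 variants, His3.3B, against 45.8% of all genes. GAGAGAGA was present at all 23 His3 and all 22 His4 copies, whose windows overlap, at no other copy and at no variant, against 3.03% of all genes. The DRE was at 0 copies and 0 variants, against 9.36%. The copies are near-identical sequences and so are not separate observations; their 300-base windows came in 5 to 8 distinct forms per class. A match describes letters and is no evidence of binding.

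Most genes of a chosen list linked to histone production were bound. The list was chosen with earlier results of these data known, so its share describes the list only. The list held 15 genes of the histone locus body, of histone gene transcription and of histone mRNA processing, and 12 of them (80.0%) had a thresholded summit within 500 bp of a start, where 42.2% of all genes did. Their median signal was 923, with a lowest of 256 at Spt6 and a highest of 5055, and 7 of the 12 exceeded the median of all bound genes. The peak was shared with a start of another gene at 9 of the 12, against 58.5% of all bound genes, and with a summit counted for its closest start alone 10 of the 15 were bound, against 32.9% of all genes. An E2F core lay within 100 bp of the summit at 4 of the 12, FLASH, Slbp, CycE and mxc, and at none of the other 8, Cdk2 among them. Of all thresholded summits, 18.9% had a core that near. The highest was at FLASH, a scaffold of histone pre-mRNA cleavage, with 2794 in replicate 1 and 2284 in replicate 3, in a peak shared with Orc3 and CG34315, with 3 E2F cores. CycE and Cdk2, the kinase that switches the locus body on in S phase, had 3473 and 1744. Slbp, which binds the histone mRNA stem-loop, had 1470 with 2 E2F cores.

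The gene mxc, whose product nucleates the body, had 1101 pooled, 610 in replicate 1 and 501 in replicate 3, and mute, which encodes another component, had 1017 pooled, 605 in replicate 1 and 415 in replicate 3. The U7 snRNP genes Lsm10 and Lsm11 had 722 and 576. All 4, and Spt6 above, are named here with their values already known.

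Cpsf100, Clamp and abo had no thresholded summit. Cpsf100, a subunit of the cleavage complex, and Clamp, whose product binds the GA repeats between His3 and His4, had relaxed summits at their starts of 171 and 181, below the lowest thresholded value of 213. Replicates 1 and 3 had 106 and 59.6 at Cpsf100, and 96.3 and 85.1 at Clamp. The gene abo, reported as a negative regulator of histone transcription, a role not examined here, had 33.4. Its −log10 q was 0.700 and its replicate values were 19.9 and 25.9.

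**Figure D5:**
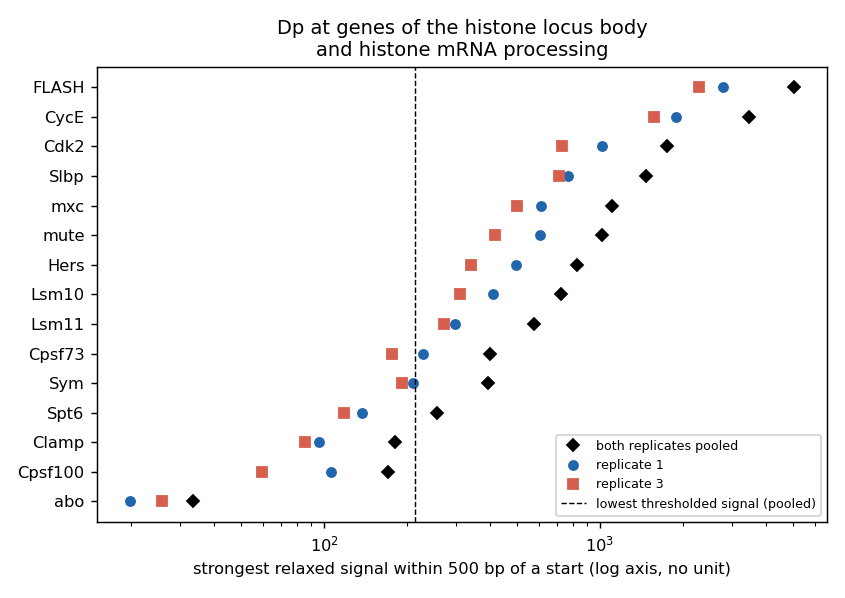
Strongest relaxed signal value within 500 bp of a start (log axis) at 15 genes of the histone locus body and of histone mRNA processing, pooled and in replicates 1 and 3. The dashed line is 213, the lowest pooled signal of a thresholded peak, and 3 genes, Clamp, Cpsf100 and abo, have pooled values below it.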

How the data were processed

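Per the deposited file descriptions, each replicate and both pooled had relaxed peaks called against a separate control alignment on dm6, and the thresholded list was derived from all of these by irreproducible discovery rate. No aligner or peak caller is named in the labels or files. Deposited values used were the signal value per peak, whose scale is not stated, the −log10 q, at most 4.30, and the summit offset in bases, an other measure that with the peak start gave the position. Read depth is unknown.

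From these lists, summits were assigned to starts of protein-coding genes in the Ensembl release 115 annotation on the 6 main arms. All peaks lay inside the arms of the reference dm6 assembly. Unique 50-mers were counted over the whole assembly on both strands, and motifs on both strands. The steps were tested on simulated data. No test was run, since the series has 1 group. Members, lists and rules were chosen with earlier results of these data known. The rule named all variants, the ends of the array and its neighbours, any array copy with a peak, genes sharing a variant's peak, and the 4 strongest and all unbound genes of the locus body list. Beyond the name biological replicate, nothing says that the replicates came from separate embryo collections. Alternatives changed the distance, the assignment, the starts, the list, the k-mer length and the motif window. Python 3.11.15, numpy 2.4.6, pandas 2.3.3 and matplotlib 3.10.9 were used.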

Additional observations from a re-analysis of the deposited data

How the results depend on the processing

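The counts of 0 array copies and of 0 summits inside the array held under every alternative run. The summit nearest to the array in any list lay 15.8 kb from it. Changes of the distance, the assignment or the starts therefore could not alter these zeros. With the zeros included, 62 of 75 alternative values stayed close to the reported one. Close means within 1.5 times for a count or share and within 1 SD between replicates for a signal ratio. For the ratios without a replicate, the SD came from the same replicate values that it judged. Those labels thus say little about how stable the ratios are. That SD, from 2 replicates, was as small as 0.000303 at BigH1, so tiny shifts there fall outside it, while losses of single genes stay within the limit for counts. When a summit could count for its closest start alone, 3 variants were bound in place of 5, without His4r and BigH1, where 32.9% of all genes were. There were 4 variants at 250 bp and where the peak interval had to cover a start, both without BigH1, and 4 with only peaks of at least the median signal of the list, without His4r. The locus body list had 8 genes with those stronger peaks, where 23.9% of all genes were bound, 10 with the closest start alone, and 11 at 250 bp and with the interval. To leave out a replicate, the 5828 strongest relaxed peaks of the other one took the place of the thresholded list, which was not derived anew. This kept 5 variants and gave 11 to 12 genes of the locus body list. Relative to the median of bound genes, the peak nearest to a start had 0.670 at His2Av in place of 1.45, 4.39 at His3.3A, 0.631 at His4r and 1.02 at BigH1. For the ratios without replicate 1 or 3, the bound genes were still those of the thresholded list of both. With the strongest peak, these ratios ran from 4.02 to 4.11 at His3.3A, 0.586 to 0.612 at His4r, 1.38 to 1.53 at His2Av and 2.48 to 2.88 at His3.3B. They stood at 0.951 at BigH1, beside 0.956 with both. With 100-mers 2.74% of the array was unique, and with 36-mers 1.08%. In a window of 200 bases to either side of the start, an E2F core was found at 18 array copies in place of 0, against 19.3% of all genes. All were of His4, with the match inside the gene. GAGAG was found at 91 copies in place of 45 and at 2 variants in place of 1. No paired analysis was possible because the series has a single group.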

Other observations

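Outside the histone genes, 5 protein-coding genes had a relaxed pooled summit within 500 bp of a start although fewer than 10% of the 50-mers around the outermost start were unique. They were CG4884 with a signal of 153, mei-9 with 106, unc-13 with 86.3, glob1 with 64.9 and CG43110 with 33.1, and none of them had a thresholded summit.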
